A study of Mus musculus with 20 samples.

Results

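Adipogenic transcription factors are the DNA-binding proteins that turn a precursor into a fat cell and keep it one. The 10 described here are Pparg, Cebpa, Cebpb, Cebpd, Klf15, Rxra, Nr1h3, Ebf1, Ebf2 and Zfp423, chosen by gene symbol through the Ensembl identifiers of the count table, in which each has 1 row of 46078. All 10 were among the 21464 genes that passed the filter on low counts, so that no member was lost before testing.

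During adipogenesis, C/EBPβ and C/EBPδ act first and switch on Pparg and Cebpa, whose products then maintain each other and bind together at most genes of the mature fat cell. PPARγ binds DNA as a pair with RXRα, and so does LXRα, the oxysterol receptor encoded by Nr1h3. EBF1, EBF2 and ZFP423 act at the step of commitment and are also made in adipocyte precursors, whereas KLF15 acts late and is known for its control of glucose and amino acid metabolism.

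The RNA was the ribosome-bound mRNA of adipocytes of the epididymal fat depot, obtained by translating ribosome affinity purification and sequencing (TRAP–seq). All mice were AdipoERCre x NuTRAP on a background that the labels write as C576BL6. In these mice a Cre that tamoxifen activates, and that is driven in fat cells, turns on a GFP-tagged ribosomal protein, and the tamoxifen was given to every mouse, controls included, before the diets began. Cells that became adipocytes later need not carry the tag, and the labels do not say how much of the purified RNA came from untagged cells.

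In the short arm, C mice were 18 weeks old and had been fed chow, and H mice were 18 weeks old after 12 weeks of high-fat diet (HFD). HC mice had the same 12 weeks of HFD followed by 8 weeks of chow, which is the weight-loss (WL) group, and were 26 weeks old, as were their chow controls CC_s. There were 3 mice in each of these groups. In the long arm, HH mice were 31 weeks old after 25 weeks of HFD, and HHC mice, at 39 weeks of age, had added 8 weeks of chow to that. Their chow controls of the same ages were CC_l and CCC, and each long-arm group had 2 mice. Chow here covers more than 1 feed. According to the paper, controls ate a low-fat chow during the HFD phase. In the WL phase HFD and control groups alike were moved to a different, standard chow.

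Counts on genes totalled 10710277 to 36738954 per library, so that the 3 counts taken as the floor correspond to 0.0817 to 0.28 CPM, the counts scaled to a common library size. The smallest count of any member in any library was 178. Along the first principal component, C replicates 1 and 2, HC replicate 3, CC_l replicate 1 and CCC replicate 2 stood apart. The other 15 had scores of −29.7 or higher, against −55.3 in CCC replicate 2 and −101 or lower in the rest of these 5. In 4 of them (C replicates 1 and 2, CCC replicate 2 and HC replicate 3) 6 nuclear-retained RNAs summed to 20600 to 38300 CPM, against 2840 to 12400 in the other 16 libraries. In CC_l replicate 1 the 8 spermatid markers summed to 3600 CPM and in HC replicate 3 to 537, against at most 132 elsewhere. Member estimates in H, 2 of whose 3 control mice are among these 5 libraries, are given with and without them. So are other member estimates whose call or direction depended on them. For genes of other lists, it is said which calls were kept or lost without these libraries. Genes called only without them are not all named. Without them C, CC_l and CCC each keep a single mouse, which is then assumed to vary like the other groups. All 10 adipocyte markers were detected in each library, at a sum of 15700 to 141000 CPM.

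Across the 4 comparisons the factors kept measurable levels throughout, and of the 10 Klf15 was the one that was called, in HH against CC_l, where it was lower. A gene was called when its nominal p was under 0.01 and its absolute log2 fold change was at least 1 in edgeR's quasi-likelihood test. In H against C, 0 of 10 members were called, 3 had a nominal p under 0.05, and DESeq2 called 2. In that comparison 3.57% of all tested genes were called higher and 2.92% lower. In HC against CC_s, 0 of 10 were called, 2 had a nominal p under 0.05 and DESeq2 called 1, against 1.57% of all tested genes called higher and 0.172% lower. In HH against CC_l, 1 of 10 was called lower by both tools, against 1.88% of all tested genes called lower and 4.92% called higher. In HHC against CCC, 0 of 10 were called, 1 had a nominal p under 0.05 and DESeq2 called 1, against 0.447% called higher and 2.67% lower. The balance of calls over all genes moved with the scaling, from 766 higher and 626 lower in H to 651 and 748 with RLE normalization, and from 96 and 573 in HHC to 156 and 421. DESeq2, whose test and dispersion estimate also differ, gave 928 higher and 1235 lower in H among 21029 genes. It gave 649 and 78 in HC, 1399 and 910 in HH, and 350 and 835 in HHC. The percentages above are those of edgeR, so the member counts of DESeq2 are to be read against these numbers.

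No member had a Benjamini-Hochberg adjusted p under 0.05 by edgeR's quasi-likelihood test in any comparison. Among all tested genes 2.12% did so in H against C, 2.07% in HH against CC_l, and 0% in both WL comparisons, where 1866 genes (HC) and 2292 genes (HHC) had an unadjusted p under 0.05. The median log2 fold change of the 10 members was −0.40 in H, −0.56 in HC, −0.84 in HH and 0.11 in HHC, each against its own control. The medians over all tested genes were −0.15, 0.27, −0.23 and −0.06. In HH against CC_l, 9 of 10 members had a negative log2 fold change, and in 8 of them both HH mice lay below both CC_l mice. That share has to be read against 55.3% of all tested genes whose groups did not overlap in this comparison of 2 against 2 mice. Groups did not overlap for 2 of 10 members in H (25.1% of all genes), 3 in HC (13.8%) and 1 in HHC (28.8%).

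**Figure D1:**
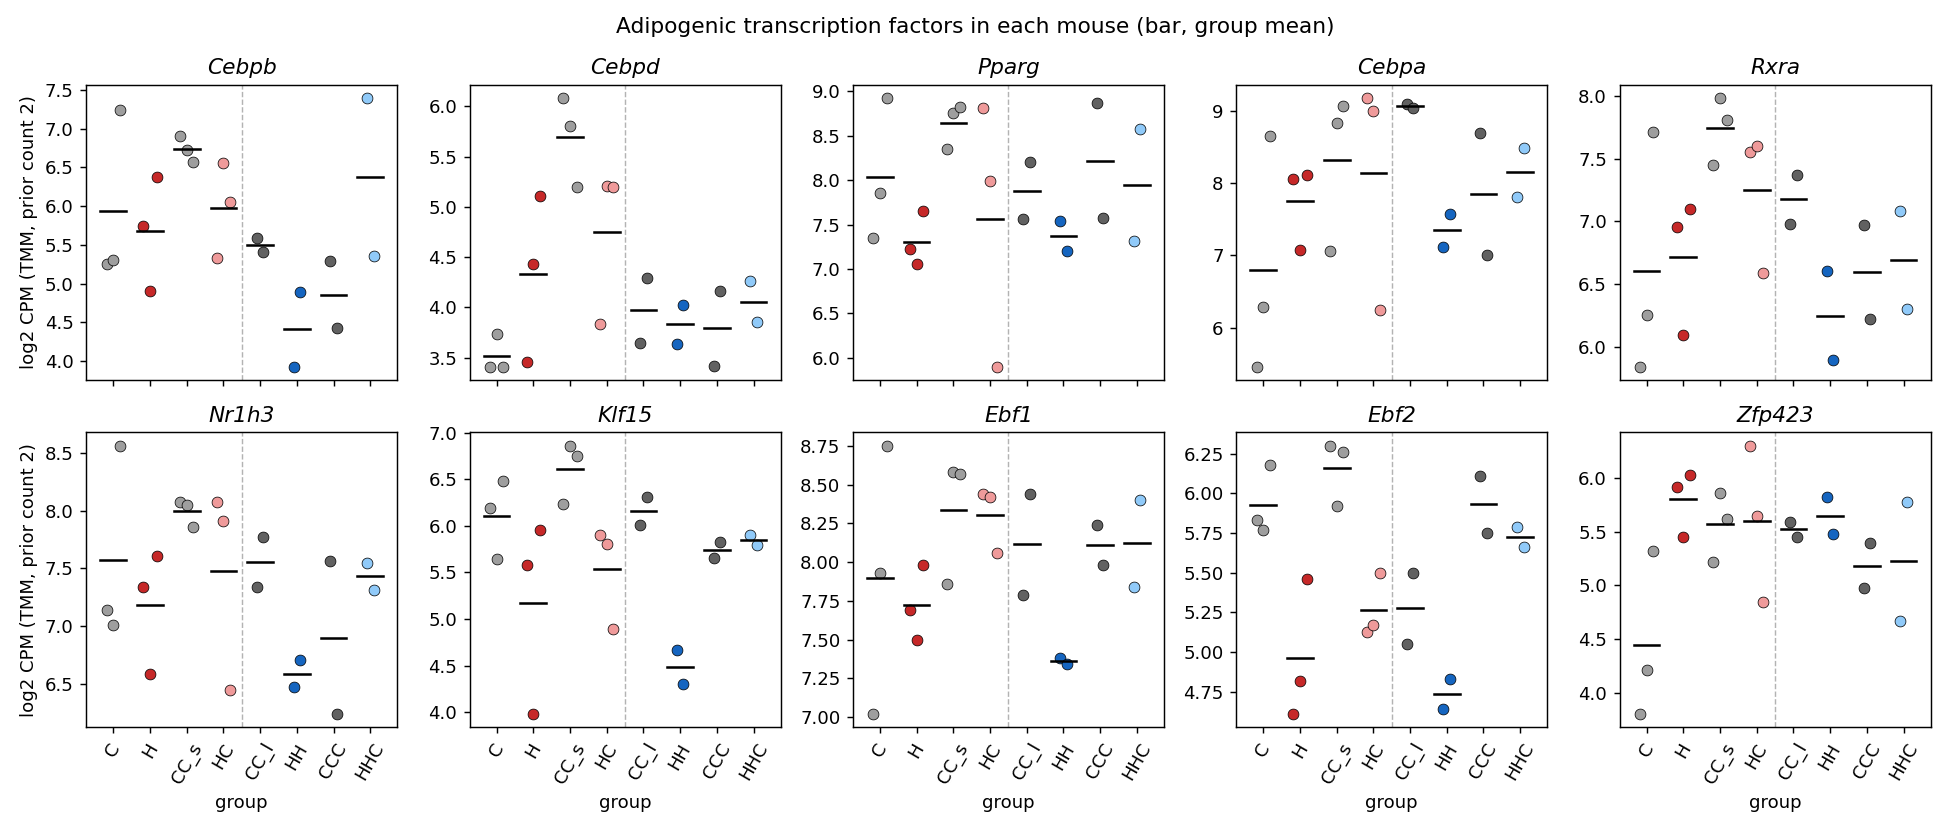
Level of each factor in every mouse, as log2 CPM after TMM scaling with a prior count of 2 (y axis), by group (x axis; the dashed line separates the short from the long arm, and bars are group means of 3 or 2 mice). Klf15 in both HH mice sat at 4.30 and 4.67, below both CC_l mice at 6.01 and 6.31, while Cebpa ranged from 5.46 to 9.17 over the 20 mice.

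In the 10 chow mice the factors differed widely in level when compared per kilobase of exon. Cebpa had a mean of 123 CPM per kb (SD 77.6, n = 10) and Pparg one of 109 (SD 43.0, n = 10), followed by Nr1h3 with 81.8 (SD 34.4) and Cebpb with 46.5 (SD 29.3). Ebf1 (30.0, SD 9.50), Klf15 (27.3, SD 8.14) and Rxra (27.2, SD 12.4) formed a middle group. Ebf2 (8.67, SD 2.08), Zfp423 (6.81, SD 2.45) and Cebpd (6.80, SD 5.56) were lowest. Nr1h3 exceeded Cebpb, and Rxra exceeded Ebf2, in 10 of 10 chow mice. The ranges over the mice nevertheless overlapped in both of these pairs, as they did between all other neighbours in the order, with 30.0 to 150 CPM per kb for Nr1h3 against 14.2 to 101 for Cebpb, and 10.5 to 46.3 for Rxra against 4.78 to 11.4 for Ebf2. Within single mice the order varied in the top pair, where Cebpa exceeded Pparg in 4 of 10 mice although its mean was higher, and in the middle group, where Ebf1 exceeded Klf15 in 6 of 10 and Klf15 exceeded Rxra in 4 of 10. Zfp423 exceeded Cebpd in 5 of 10 mice. The mean level per kb of Rxra was thus below that of Pparg and of Nr1h3, its partners on DNA.

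**Figure D2:**
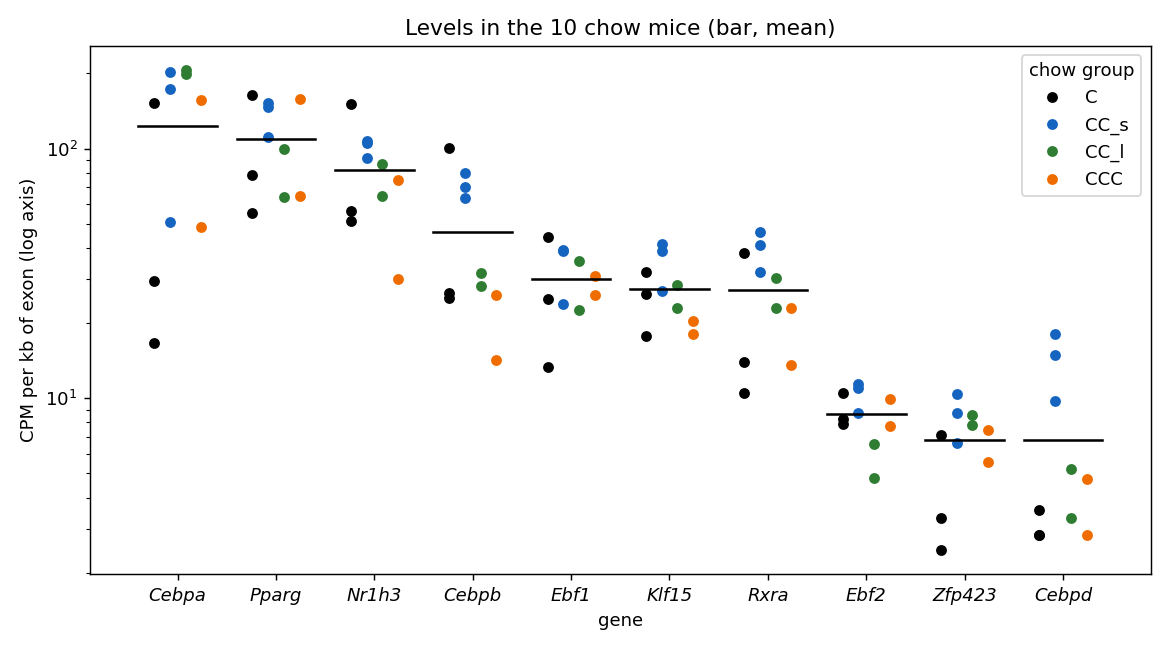
CPM per kb of exon (log y axis) of the 10 factors in the 10 chow mice, coloured by chow group, with the mean as a bar and genes ordered by that mean. Cebpa (mean 123) spans 16.6 to 206 and overlaps Pparg (mean 109), and Cebpd in the 3 CC_s mice lies above all other chow mice.

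Cebpb (chr2:167688915-167690418, forward strand; this and the other gene positions are from GENCODE vM21 on GRCm38, the same assembly as mm10) encodes C/EBPβ, an early factor of adipogenesis that inflammatory and hormonal signals also induce. Its level was 38.0, 39.5 and 151 CPM in the C mice and 53.6, 29.7 and 82.5 in the H mice. It was 120, 105 and 95.0 CPM in CC_s and 40.3, 94.2 and 66.1 in HC. The H mice overlapped the C mice, with H replicate 2 below all 3 of them and C replicate 3 above all H mice, whereas all 3 HC mice lay below all 3 CC_s mice. In the long arm it was 47.9 and 42.3 CPM in CC_l, 15.1 and 29.6 in HH, 39.0 and 21.4 in CCC, and 168 and 41.0 in HHC. Both HH mice were below their controls and both HHC mice above theirs, but HHC replicate 2 exceeded the higher CCC mouse by only a small margin. The log2 fold changes were −0.46 (SE 0.58) in H, −0.67 (SE 0.58) in HC, −1.01 (SE 0.71) in HH and 1.79 (SE 0.73) in HHC. The last had a nominal p of 0.0247 and an adjusted p of 0.391 by edgeR's quasi-likelihood test, and without HHC replicate 1 it was 0.44. DESeq2 put it past the call rule at 1.94 (nominal p 0.00652). In H the value was −1.34 (nominal p 0.0659) without the 5 libraries that stood apart, and 0.51 without C replicate 3.

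Cebpd (chr16:15887286-15891031, forward strand) encodes C/EBPδ, the other early C/EBP. Its level was 10.6, 13.3 and 10.6 CPM in C and 10.9, 21.5 and 34.6 in H. It was 67.8, 55.6 and 36.6 CPM in CC_s and 14.1, 36.9 and 36.6 in HC. The H mice reached from the level of C to above it, and the HC mice from below the CC_s range to its lower edge, so that the groups touched or overlapped in both comparisons. Long-arm mice had 12.4 and 19.5 CPM in CC_l, 12.4 and 16.2 in HH, 10.6 and 17.8 in CCC, and 19.1 and 14.3 in HHC, with overlap in both comparisons. The log2 fold changes were 0.96 (SE 0.43, adjusted p 0.268) in H and −0.87 (SE 0.43, adjusted p 0.579) in HC, both by edgeR's quasi-likelihood test, and −0.16 and 0.23 in HH and HHC, of which neither was called. The value in H was 1.19 (nominal p 0.1) without the 5 libraries that stood apart. For 20.7% of the exon bases of Cebpb (312 bases, Tmem189) and 15.0% of those of Cebpd (562 bases, Spidr), an exon of a counted gene lies on the opposite strand. The library protocol does not mark strand, so reads there cannot be assigned to either gene of the pair.

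Pparg (chr6:115360951-115490399, forward strand) encodes PPARγ, the nuclear receptor without which fat cells do not form. Its level was 163, 231 and 483 CPM in C and 149, 133 and 201 in H. It was 327, 434 and 451 CPM in CC_s and 450, 254 and 59.6 in HC. The H mice overlapped C replicates 1 and 2, which stood apart on the first principal component, and lay far below C replicate 3, while the lowest HC value belonged to replicate 3, another library that stood apart. The long-arm mice had 188 and 294 CPM in CC_l, 186 and 147 in HH, 468 and 190 in CCC, and 158 and 382 in HHC. HH replicate 1 lay just below the lower CC_l mouse, and CCC and HHC overlapped. The log2 fold changes were −0.86 (SE 0.59) in H, −0.67 (SE 0.59) in HC, −0.53 (SE 0.73) in HH and −0.28 (SE 0.72) in HHC, of which none was called. Pparg thus had a negative estimate in all 4 comparisons, with adjusted p of 0.485, 0.773, 0.745 and 0.940 by edgeR's quasi-likelihood test. Without the 5 libraries that stood apart it was −1.47 in H (nominal p 0.00593), where it then passed the call rule, and −0.26 in HC (nominal p 0.507). Single mice moved these values too, to −0.29 in H without C replicate 3, to −1.37 and −0.21 in HC without HC replicates 1 and 3, and to −0.15 in HH without CC_l replicate 2.

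The gene counts pool all transcript starts of Pparg, so the 2 main forms of the receptor cannot be told apart in these values. RefSeq (GRCm38.p6) places the gene on the forward strand of chromosome 6, and the window of the downstream start, the one known for its use in fat cells, is chr6:115421816-115422115, from 250 bases before to 50 bases after the start. It is shown because that start gives the adipocyte form, with capitals marking the CCAAT box, which was found at 144 and 22 bases before the start. The GC box (GGGCGG) and the core motif of nuclear receptors (AGGTCA) were also searched on both strands and not found, so no match overlaps another. The CCAAT box occurs in 37.4% of the 32851 RefSeq promoter windows of the same length, and the G and C content of this window was 40.3% against a median of 52.7%.
Pparg downstream promoter: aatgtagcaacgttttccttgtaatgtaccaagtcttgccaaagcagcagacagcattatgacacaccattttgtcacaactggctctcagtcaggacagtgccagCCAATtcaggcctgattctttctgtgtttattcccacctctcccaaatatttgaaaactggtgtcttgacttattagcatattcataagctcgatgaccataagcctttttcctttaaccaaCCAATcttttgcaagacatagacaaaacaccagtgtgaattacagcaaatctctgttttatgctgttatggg

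Cebpa (chr7:35119293-35121928, forward strand) encodes C/EBPα, the partner that maintains Pparg expression, and it was the most variable factor, with an SD of 1.11 log2 CPM over the 20 mice. Its level was 43.8, 77.6 and 402 CPM in C and 266, 135 and 277 in H. It was 134, 455 and 532 CPM in CC_s and 576, 507 and 76.0 in HC. In each of these groups except H 1 or 2 mice lay several-fold below the others, and the groups overlapped in both comparisons. Long-arm levels were 544 and 524 CPM in CC_l, 139 and 189 in HH, 412 and 128 in CCC, and 223 and 359 in HHC. Both HH mice lay below both CC_l mice, with a log2 fold change of −1.70 (SE 0.98, nominal p 0.101, adjusted p 0.375 by edgeR's quasi-likelihood test), which was not called. A fit of only the HH and CC_l libraries gave −1.64 with a nominal p of 0.00273, which passed the call rule. In H, HC and HHC the log2 fold changes were 0.38, 0.05 and 0.11, each smaller than its SE of 0.78, 0.78 and 0.96. The estimate in H was 1.90 (nominal p 0.0263) without C replicate 3, which alone lay above the H mice. Without the 5 libraries that stood apart it turned to −0.72 (nominal p 0.242) and that in HHC to −0.43 (nominal p 0.517).

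Rxra (chr2:27676440-27762957, forward strand) encodes RXRα, the partner of PPARγ and LXRα on DNA. Its level was 57.3, 76.1 and 209 CPM in C, 124, 68.2 and 137 in H, 175, 253 and 224 in CC_s, and 187, 194 and 96.0 in HC. The long-arm values were 126 and 165 CPM in CC_l, 97.0 and 59.0 in HH, 126 and 74.5 in CCC, and 135 and 78.5 in HHC. Both HH mice lay below both CC_l mice, and the other 3 pairs of groups overlapped. The log2 fold changes were −0.06 (SE 0.47), −0.45 (SE 0.47), −0.90 (SE 0.58) and 0.09 (SE 0.58) in H, HC, HH and HHC, and none was called. The estimate in H is close to 0, and was 0.72 without C replicate 3 and −0.82 (nominal p 0.0798) without the 5 libraries that stood apart.

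Nr1h3 (chr2:91184061-91202834, reverse strand) encodes LXRα, which adipocytes and macrophages both express. Its level was 141, 129 and 378 CPM in C, 162, 96.4 and 196 in H, 269, 265 and 231 in CC_s, and 269, 241 and 87.3 in HC. In the long arm it was 162 and 218 CPM in CC_l, 88.4 and 104 in HH, 188 and 75.5 in CCC, and 188 and 159 in HHC. As with Rxra, the HH mice were the one group that lay wholly below its control. The log2 fold changes were −0.51 (SE 0.49), −0.36 (SE 0.49), −0.98 (SE 0.60) and 0.39 (SE 0.60), and none was called. Without the 5 libraries that stood apart Nr1h3 passed the call rule in H, at −1.21 (nominal p 0.006), on a single C mouse. Over the 20 mice the levels of Rxra and Nr1h3 were the most alike of the 45 pairs of members (Pearson's r 0.83, Spearman's rho 0.88, and r 0.88 over the 15 libraries that did not stand apart), a description of libraries that share their composition, with no test.

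Klf15 (chr6:90462576-90475238, forward strand) encodes the Krüppel-like factor that glucocorticoids and fasting induce and that raises Slc2a4, the insulin-responsive glucose transporter. Its level was 64.4 and 79.5 CPM in CC_l and 25.4 and 19.6 in HH. It was 50.4 and 56.9 CPM in CCC and 59.7 and 55.6 in HHC. The HH mice lay below all other long-arm mice, while the HHC mice overlapped CCC. Klf15 fell in HH by 1.67 on the log2 scale (SE 0.52, nominal p 0.00477, adjusted p 0.105 in edgeR's quasi-likelihood test). In HHC the log2 fold change was 0.10 (SE 0.50, adjusted p 0.998). The difference between these effects, which was tested for Klf15 because it was called in HH, was 1.78 (SE 0.72, nominal p 0.024, adjusted p 0.245 by edgeR's quasi-likelihood test), and so did not pass the threshold. The call in HH was lost without HH replicate 1 (nominal p 0.0168), without HH replicate 2 (0.0455) and without CC_l replicate 2 (0.0267), with the log2 fold change between −1.86 and −1.48. It was kept without the 5 libraries that stood apart, at −1.74 (nominal p 0.00711).

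In the short arm Klf15 was at 72.9, 49.6 and 89.3 CPM in C, 47.9, 15.7 and 62.3 in H, 74.9, 116 and 108 in CC_s, and 59.6, 56.0 and 29.5 in HC. The H mice overlapped C, and the 3 HC mice lay below the 3 CC_s mice. The log2 fold change was −0.75 (SE 0.41, nominal p 0.0867, adjusted p 0.373) in H and −1.04 (SE 0.42, nominal p 0.0226, adjusted p 0.544) in HC, by edgeR's quasi-likelihood test, and neither was called. DESeq2 called the HC difference, at −1.05 (nominal p 0.00832). The value in H was −0.98 (nominal p 0.0754) without the 5 libraries that stood apart. The genes whose levels over the 20 mice were most like those of Klf15 were Gys1, the glycogen synthase of muscle and fat (r 0.917, rho 0.782), and Acaa1a, a thiolase of peroxisomal fatty acid oxidation (r 0.913, rho 0.856).

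The promoter window of Klf15, the called member, is chr6:90462326-90462625 on the forward strand in RefSeq (GRCm38.p6), again 250 bases before to 50 bases after the start. Capitals mark 1 GC box (GGGCGG) at 91 bases and 1 CCAAT box at 62 bases before the start. Of all 32851 windows 35.7% hold GGGCGG and 37.4% hold CCAAT on either strand, and AGGTCA, which 16.3% hold, was not found in this window. Its G and C content was 73.3%. A match of letters is a description and not a binding site. RefSeq windows were found for 8 of the 10 members.
Klf15 promoter: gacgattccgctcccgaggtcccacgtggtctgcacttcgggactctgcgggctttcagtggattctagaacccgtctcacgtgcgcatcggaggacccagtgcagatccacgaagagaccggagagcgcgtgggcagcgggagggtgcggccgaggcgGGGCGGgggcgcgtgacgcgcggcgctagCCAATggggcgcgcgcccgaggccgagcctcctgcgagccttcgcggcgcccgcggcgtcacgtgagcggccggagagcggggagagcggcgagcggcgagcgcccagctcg

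Ebf1 (chr11:44617317-45008091, forward strand) encodes an early B-cell factor that acts upstream of Pparg and also keeps mature adipocytes in their state. Its level was 130, 244 and 431 CPM in C, 207, 181 and 252 in H, 233, 383 and 380 in CC_s, and 346, 342 and 268 in HC. Levels in the long arm were 221 and 347 CPM in CC_l, 166 and 162 in HH, 301 and 252 in CCC, and 228 and 339 in HHC. HH had the lowest mean of the 8 groups, and both its mice lay below both CC_l mice. The log2 fold changes were −0.33 (SE 0.40), −0.06 (SE 0.40), −0.79 (SE 0.50) and 0.04 (SE 0.50), and none was called. In H the value was −0.91 (nominal p 0.028) without the 5 libraries that stood apart and 0.19 without C replicate 3.

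Ebf2, a factor of precursors that also marks beige and brown fat cells, had the smallest spread within groups, with a biological coefficient of variation of 0.273 against 0.359 to 0.640 in the other members (chr14:67233292-67430918, forward strand). Its level was 57.0, 54.4 and 72.4 CPM in C and 24.4, 28.1 and 44.0 in H. It was 78.8, 60.5 and 76.3 CPM in CC_s and 34.8, 35.9 and 45.2 in HC. All 3 H mice lay below all 3 C mice, and all 3 HC mice below all 3 CC_s mice. The log2 fold change was −0.93 (SE 0.28, nominal p 0.00417, adjusted p 0.0958) in H and −0.90 (SE 0.28, nominal p 0.00546, adjusted p 0.536) in HC, by edgeR's quasi-likelihood test. Both nominal p were under 0.01 and both folds just short of the limit of 1, so Ebf2 was not called. RLE normalization and DESeq2 each gave −1.01 in H, past the limit. Without the 5 libraries that stood apart the values were −1.06 in H (nominal p 0.0106) and −1.09 in HC (nominal p 0.00355). In the long arm it was 33.1 and 45.3 CPM in CC_l, 24.9 and 28.3 in HH, 69.0 and 53.6 in CCC, and 55.3 and 50.3 in HHC, with log2 fold changes of −0.56 (SE 0.34) and −0.22 (SE 0.34). Ebf2 had a negative estimate in all 4 comparisons, like Pparg. An exon of Gm10860 on the opposite strand covers 6.12% of its exon bases.

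Zfp423 (chr8:87661810-87959595, reverse strand) encodes a zinc finger protein that commits precursors to the fat lineage and holds white adipocytes white. Its level was 13.8, 18.5 and 39.9 CPM in C and 60.5, 43.5 and 65.4 in H. It was 37.2, 58.1 and 49.1 CPM in CC_s and 78.8, 50.0 and 28.5 in HC. All 3 H mice lay above all 3 C mice, but H replicate 2 exceeded C replicate 3 by little, and the HC mice spanned the CC_s range. The log2 fold change in H was 1.23 (SE 0.43, nominal p 0.0107, adjusted p 0.151 by edgeR's quasi-likelihood test), just outside the nominal limit. It passed the call rule with RLE normalization (1.19, nominal p 0.00756), DESeq2 (1.19, nominal p 0.00346), halved counts (1.27, nominal p 0.00666) and no filter on low counts (1.28, nominal p 0.00289). Without the 5 libraries that stood apart, which include the 2 lowest C mice, it was 0.61 (nominal p 0.202). In HC, HH and HHC the log2 fold changes were 0.12 (SE 0.42), 0.13 (SE 0.52) and 0.13 (SE 0.52). Its long-arm levels were 48.2 and 43.7 CPM in CC_l, 56.2 and 44.5 in HH, 31.2 and 41.9 in CCC, and 25.3 and 54.8 in HHC, and the groups overlapped. The levels of Zfp423 and Ebf2 over the 20 mice were the least alike of the 45 pairs (r −0.40, rho −0.49), again as a description with no test.

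**Figure D3:**
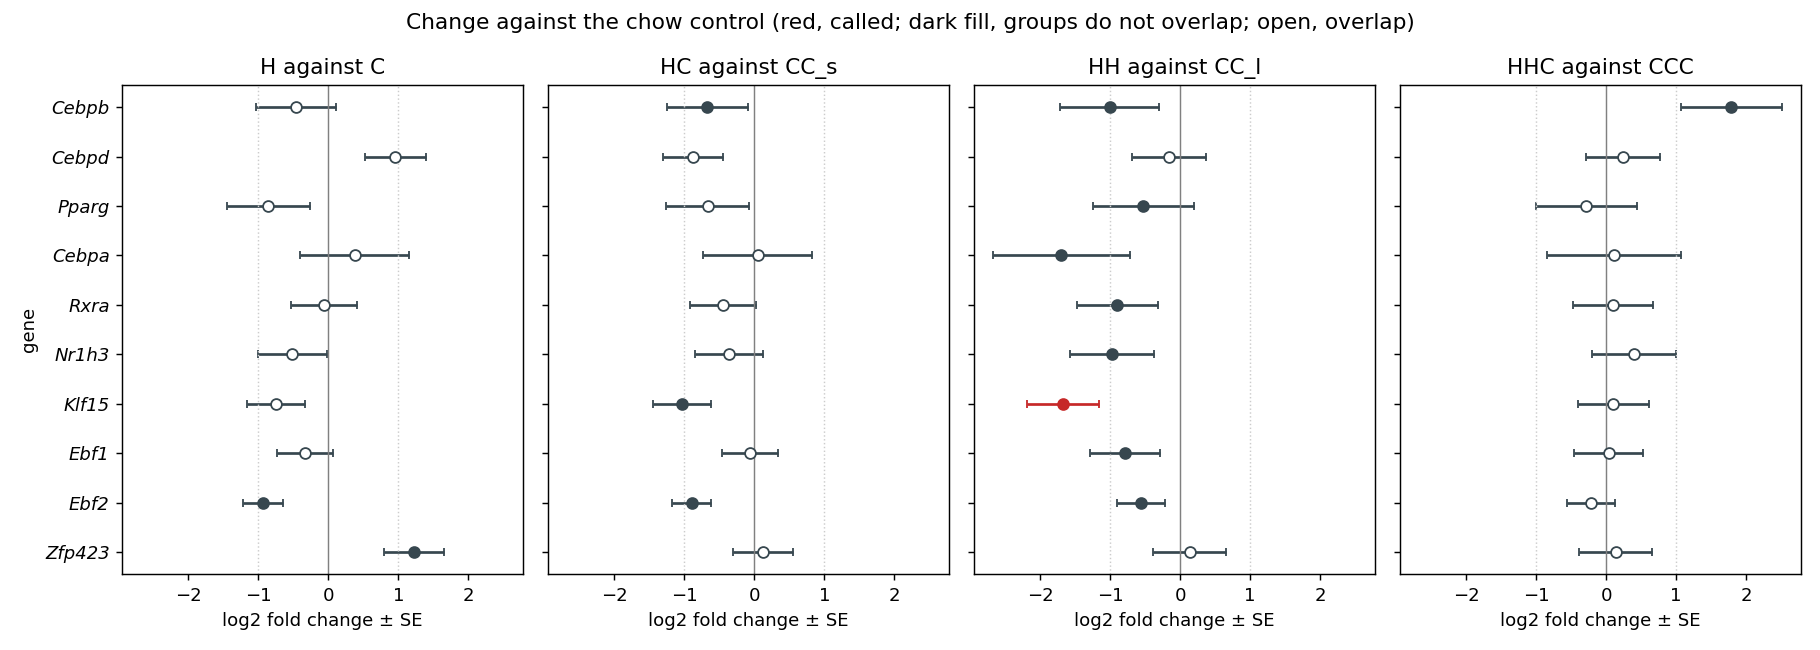
Log2 fold change with its standard error (x axis) of the 10 factors (y axis) in the 4 comparisons with their own chow control; red is called, dark fill marks groups that do not overlap, open circles groups that overlap, and dotted lines the limit of 1. In HH against CC_l 9 of 10 estimates lie left of 0, and Klf15 at −1.67 is the red point.

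Markers of other cell types moved with the same comparisons. In HH the 12 adipocyte progenitor markers summed to 6100 to 8840 CPM against 616 to 1040 in CC_l, the 10 macrophage markers to 3220 to 4330 against 207 to 388, and the 8 endothelial markers to 1020 to 2140 against 206 to 248. The 10 adipocyte markers summed to 29300 to 33500 CPM in HH and 68300 to 76300 in CC_l. In H the progenitor markers summed to 1820 to 7120 CPM against 894 to 1900 in C, with overlap. Of the 12 progenitor markers 9 had a positive estimate in H, whereas F3 (−1.28), Pi16 (−1.70) and Dpp4 (−0.82) were negative. The endothelial markers summed to 2010 to 2350 CPM in H against 316 to 857 in C, and the macrophage markers to 562 to 3310 against 221 to 383. In HC the macrophage markers summed to 517 to 1310 CPM against 194 to 253 in CC_s. The adipocyte markers summed to 15700 to 83000 CPM in HC against 85900 to 119000 in CC_s, and the progenitor markers to 1140 to 2410 against 866 to 1050. The lowest adipocyte sum in HC was that of replicate 3, which stood apart, with 78200 and 83000 in the other HC mice. Adipocyte sums overlapped in H (32000 to 58400 against 30200 to 141000 in C) and in HHC (52200 to 89600 against 30000 to 78900 in CCC). The endothelial sums overlapped between HC and CC_s (284 to 1250 against 210 to 1140). In HHC the progenitor markers were lower than in CCC (958 to 1500 against 1870 to 3170 CPM), the endothelial markers were too (105 to 144 against 313 to 698 CPM, with a negative estimate for 8 of 8 and 2 called), and the macrophage sums overlapped (747 to 1310 against 766 to 855). The median estimate of the 6 nuclear-retained RNAs was −2.60 in H on the log2 scale, with 3 called lower, and −2.27 in HHC, with 2 called lower, while their sums overlapped in both (4540 to 5580 CPM in H and 4970 to 38300 in C, 3460 to 12400 in HHC and 7490 to 28700 in CCC). No marker of the adipocyte, progenitor, macrophage and endothelial lists was at 0 in any library. Their part in the values of Klf15, Ebf2, Zfp423 and the other factors was not tested, and in bulk RNA fewer cells of a type and less RNA per cell cannot be told apart.

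The genes that these factors act on moved in both directions. Of 30 known target genes of PPARγ and C/EBPα, all of them tested, 3 were called higher and 5 lower in H, with a median log2 fold change of −0.10 against −0.15 for all genes. Over all tested genes 3.57% were called higher and 2.92% lower in this comparison. The adipocyte markers above, except Acvr1c, are also in this list of targets, so their sums are not separate observations. Cfd, the adipokine complement factor D, fell by 3.76 (adjusted p 0.00996), Slc2a4 by 2.01 (adjusted p 0.0166) and Acaca, which makes malonyl-CoA for fatty acid synthesis, by 2.64 (adjusted p 0.0239), by edgeR's quasi-likelihood test. The adipocyte galectin gene Lgals12 fell by 2.06 (adjusted p 0.0497 by the same test). The inhibitor of lipoprotein lipase Angptl4 rose by 1.99 (adjusted p 0.024), and Lep, which encodes leptin, by 2.02 (adjusted p 0.125). In HH 1 target was called higher (Aqp7, the glycerol channel, 1.68) and 3 lower, namely Cfd (−2.40), Acaca (−2.29) and Lgals12 (−1.87), with a list median of −0.89. In HC only Angptl4 was called, at 1.28 (nominal p 0.0078), and in HHC Pdk4, which restrains glucose oxidation, rose by 3.66 (nominal p 4.54e-06) while Acaca fell by 2.44 (nominal p 0.00267). Over all tested genes 4.92% were called higher and 1.88% lower in HH, 1.57% and 0.172% in HC, and 0.447% and 2.67% in HHC. Acaca was thus called lower in 3 of the 4 comparisons and Pparg in none. When the 5 libraries that stood apart were left out, which leaves a single C mouse, the median of the targets in H was −0.82. The median over all genes was then 0.35. Cfd, Slc2a4, Acaca and Lgals12 kept their calls there, whereas Angptl4 (1.54, nominal p 0.0138), Lep (1.14, nominal p 0.0422), Aqp7 (0.77) and Adrb3 (−1.04) did not, and neither did Angptl4 in HC (1.08, nominal p 0.0141). Fasn, Retn, Plin1 and Gpd1 were then called lower in H, and they are named after their values were seen. Aqp7, Cfd, Acaca and Lgals12 kept their calls in HH, as did Pdk4 and Acaca in HHC, and further targets gained calls in both.

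Calls among the target genes of LXR were mostly higher. Of 10 genes, Nr1h3 itself included, 3 were called higher in H, 2 in HC and 4 in HH, and 1 was called lower in H and in HHC. Over all tested genes 3.57% were called higher and 2.92% lower in H, and 1.57% and 0.172% in HC. These shares were 4.92% and 1.88% in HH, and 0.447% and 2.67% in HHC. In each comparison of this fit they leaned the same way as the calls in the list. Pltp, the phospholipid transfer protein, rose by 4.81 in H (adjusted p 0.00232), 2.07 in HC (adjusted p 0.536) and 4.60 in HH (adjusted p 0.0181), and was 0.16 in HHC (adjusted p 0.989), by edgeR's quasi-likelihood test. Abcg1, a cholesterol exporter, rose by 2.28 in H, 1.55 in HC and 3.76 in HH, and was 1.03 in HHC (nominal p 0.113). Lpcat3, a phospholipid-remodelling enzyme, rose by 1.43 in H, and Smpdl3a and Mylip, which limits the LDL receptor, rose by 2.68 and 2.27 in HH. Srebf1, the lipogenic factor that LXR induces, fell by 1.93 in H (adjusted p 0.0405) and by 2.36 in HHC (adjusted p 0.196). Nr1h3 was not called in any of these comparisons. Pltp was still called in H (5.33), HC (2.08) and HH (4.61) and Srebf1 in H (−1.97) when the 5 libraries that stood apart were left out. Abcg1 was then called in HH alone (3.51), with a nominal p of 0.0193 in H and 0.0695 in HC, and the calls of Lpcat3 in H, Mylip in HH and Srebf1 in HHC were lost (nominal p 0.0456, 0.0134 and 0.0264). Macrophages also express Pltp, Abcg1 and Nr1h3, and their marker sums above moved in H, HC and HH, but a share of the change was not tested.

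Of 33 other factors and coactivators that promote adipogenesis, 0 were called higher and 6 lower in H (3.57% and 2.92% of all tested genes). These were Mlxipl, the carbohydrate-response factor ChREBP (−3.63, adjusted p 0.0116), Ppargc1b (−2.23), Ppargc1a (−2.12, adjusted p 0.0264), Srebf1, Stat5a (−1.25) and Zfp467 (−1.19), where the adjusted p are those of edgeR's quasi-likelihood test. Ppargc1a and Ppargc1b encode coactivators of PPARγ that raise mitochondrial genes. In HH the BMP receptor gene Bmpr2 rose by 1.46, and in HHC Mlxipl fell by 3.23 (nominal p 0.00109) with Srebf1. In HC none was called, and the lowest nominal p were those of Egr2 (2.18, nominal p 0.0591) and Srebf1 (−0.92, nominal p 0.0592). With those 5 libraries left out Mlxipl (−2.69), Srebf1, Stat5a and Zfp467 kept their calls in H, Ppargc1a (−1.43, nominal p 0.0146) and Ppargc1b (−1.23, nominal p 0.0974) did not, and neither did Mlxipl (−1.32, nominal p 0.065) in HHC. The medians of the list, −0.16, −0.07, −0.15 and −0.06, lay close to 0.

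Of 31 anti-adipogenic factors and corepressors, 3 were called higher and 2 lower in H (3.57% and 2.92% of all tested genes). In H 11 of the 31 had a positive estimate. The medians of the list were −0.25, 0.14, 0.29 and −0.26 in H, HC, HH and HHC. Zfp521, the antagonist of ZFP423 and EBF1, rose by 1.46 (nominal p 0.00571), and Wwtr1, which encodes the PPARγ repressor TAZ, by 1.44 (nominal p 0.00382). The β-catenin gene Ctnnb1 rose by 1.18 in H and by 1.90 in HH (adjusted p 0.0533 by edgeR's quasi-likelihood test). Sox9 and the corepressor gene Nrip1 fell by 1.87 and 1.39 in H. Id2, an inhibitor of helix-loop-helix factors, rose by 2.37 in HH and by 1.85 in HHC. In HC none of the 31 was called, and Ddit3 (0.61, nominal p 0.16) and Nr2f2 (−0.50, nominal p 0.199) came nearest. Nr2f2 and Hes1 were called lower in HC only when the 5 libraries that stood apart were left out. In the same fit of 15 libraries Zfp521 and Nrip1 kept their calls in H and Ctnnb1 and Id2 theirs in HH, whereas Sox9, Wwtr1 and Ctnnb1 in H (nominal p 0.0425, 0.0246 and 0.0589) and Id2 in HHC (nominal p 0.0336) did not.

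**Figure D4:**
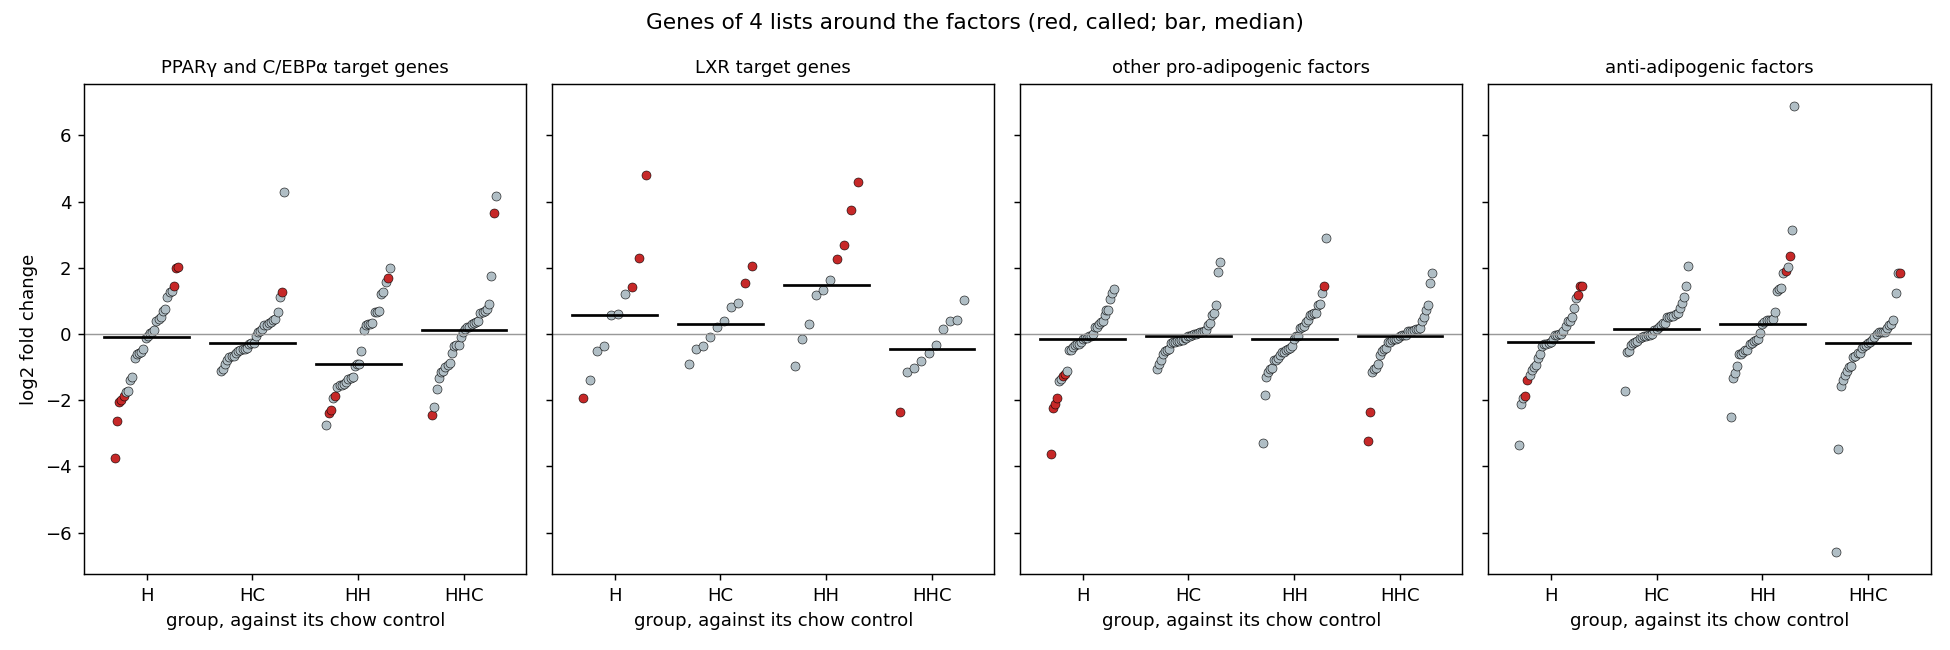
Log2 fold change (y axis) of each gene in 4 lists of targets and co-regulators, in H, HC, HH and HHC against their chow controls (x axis); red points are called and bars are list medians. The LXR targets have the highest median in HH (1.49), where 4 of 10 genes are red, and the PPARγ and C/EBPα targets the lowest (−0.89).

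For the remaining members, the 2 genes with the most similar levels over the 20 mice are a description of shared variation and carry no test. They were Raver2 and Ptp4a1 for Pparg (r 0.938 for both), and Phlda3 (r 0.976) and Wbp2 (r 0.971) for Cebpa. Cebpb was most like Ppp1r8 (0.935) and Ube2z (0.934), and Cebpd least like any gene, with Ccdc71l at 0.759 and Gm24270 at 0.740. Rxra was most like Akt2 (0.946), the insulin-signalling kinase, and Psmd3 (0.942), and Nr1h3 most like Mettl16 (0.967) and Tmem219 (0.958). Ebf1 went with Srr (0.884) and Atf2 (0.861), Ebf2 with Naa30 (0.914) and Trp53bp2 (0.913), and Zfp423 with Tspan17 (0.910) and Tbc1d9b (0.897).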

How the data were processed

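TRAP–seq libraries of 20 mice in 8 groups were analysed, with groups taken from the labels (3 mice per short-arm group, 2 per long-arm group). The authors checked reads with FastQC 0.11.9, trimmed them with Trim Galore 0.6.6, aligned them to mm10 with HISAT2 2.2.1 and deposited raw counts per gene from featureCounts (Subread 2.0.1); the annotation, the strand setting and the treatment of read pairs are not given in the sources used here. Of the counts from 1 to 10, 89.6% to 95.8% per library were even, so that the number of independent fragments may be lower than the counts. Symbols came from GENCODE vM21, which matched 45143 of 46078 identifiers.

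Counts were filtered with filterByExpr (21464 genes kept), scaled by TMM and tested with edgeR 4.0.16 (quasi-likelihood, R 4.3.3) in 1 fit of all 20 libraries. The call rule was a nominal p under 0.01 together with a log2 fold change of 1 or more in size, and p were adjusted by Benjamini-Hochberg over all tested genes. The control of each HFD and WL group was the chow group of its arm and age. Library names carry a different prefix in each arm, the meaning of which is not given in the sources used here. Whether replicates came from separate cages or litters is not stated, and p measure the spread between these mice. Levels are CPM on TMM-scaled library sizes. The members, gene lists and tests were chosen with earlier results of these data known. Besides the members, the text names for each member the 2 genes with the highest Pearson correlation, and genes of the lists that were called, up to 6 per list and comparison by fold, or the 2 with the lowest p where none was.

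As alternatives the fit was repeated in DESeq2 1.42.0, with only the compared groups, without the filter on low counts, with RLE normalization, with the replicate number as a block, with halved counts, with an adjusted p threshold of 0.05 and without each mouse in turn. Leaving out the 5 libraries that stood apart, leaving out single mice for Cebpd between chow groups, and crossing the replicate numbers in the long arm were chosen after seeing the data. The fit was first tested on simulated data. Plots were made in python 3.11.15 (matplotlib 3.10.9).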

Additional observations from a re-analysis of the deposited data

Results flagged for a closer look

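The estimates of Cebpd in H against C and in HC against CC_s had opposite signs, and their difference passed the call rule. The log2 fold change was 0.96 in H against C and −0.87 in HC against CC_s, a difference of −1.83 (SE 0.61, nominal p 0.00796, adjusted p 0.325 by edgeR's quasi-likelihood test). In numbers of mice, 2 of the 3 H mice lay above all C mice, while 1 of the 3 HC mice lay below all CC_s mice by a wide margin. Mean levels were 11.5 CPM in C and 53.3 in CC_s, against 22.3 in H and 29.2 in HC. The chow controls thus differed themselves, as described under other observations. The nominal p rose above 0.01 with RLE normalization (0.014) and without the 5 libraries that stood apart (0.0176), where the difference was −1.72 and −2.31, and with only the compared groups (−1.77, nominal p 0.0178). With 1 mouse left out the difference ranged from −2.16 to −1.37 and no longer passed in 8 of 12 cases, namely without any 1 of the 3 C mice, H replicates 2 and 3, CC_s replicates 1 and 2 and HC replicate 1. The highest nominal p was 0.037, without H replicate 3.

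Cebpb lay on opposite sides of its controls in the long arm. Both HH mice lay below both CC_l mice and both HHC mice above both CCC mice, a difference of 2.80 (SE 1.02, nominal p 0.0134, adjusted p 0.193 by edgeR's quasi-likelihood test). Against the short arm after WL, where the 3 HC mice lay below the 3 CC_s mice, the difference of the HHC effect was 2.46 (SE 0.93, nominal p 0.0163, adjusted p 0.373 by the same test). Neither passed the adjusted threshold. The value in HHC rests on replicate 1, at 168 CPM against 41.0 in replicate 2, and without that library the difference from HH was 1.43.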

How the results depend on the processing

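The number of members called moved as follows. In H it was 0 and became 2 with RLE normalization and with DESeq2 (Ebf2 and Zfp423 in both), and 1 with no filter on low counts and with halved counts (Zfp423). In HC it was 0 and became 1 with DESeq2 (Klf15) and without the 5 libraries (Ebf2). In HH it was 1 and became 2 with no filter and with only the compared groups (Cebpa and Klf15), and 0 with the adjusted p threshold. In HHC it was 0 and became 1 with no filter and with DESeq2 (Cebpb). Without the 5 libraries that stood apart, which leaves a single C mouse, Pparg was −1.47 and Nr1h3 −1.21 in H. Leaving out 1 mouse gave counts from 0 to 1 in each comparison. In H the member called was Cebpd without H replicate 1, Ebf2 without C replicate 2 or H replicate 3, and Zfp423 without H replicate 2 or C replicate 3; in HC it was Ebf2 without CC_s replicate 2 or HC replicate 3; and in HHC Cebpb without HHC replicate 2. The difference of the Cebpd effect between H and HC ranged from −2.16 to −1.37 with 1 mouse left out and lost its call in 8 of 12 cases. The difference of the Klf15 effect between HH and HHC, 1.78, passed the call rule with only the compared groups (1.97, nominal p 0.00466) and DESeq2 (1.92, nominal p 0.00544), and ranged from 1.58 to 1.96 with 1 mouse left out. Member counts are to be read against calls over all tested genes in the same fit. With no filter 34443 genes were tested. Of these 1121 were called higher and 1371 lower in H, 1461 and 1418 in HH, and 380 and 886 in HHC. Halved counts gave 819 and 655 of 18985 genes in H. With only the compared groups, 1447 and 447 of 17667 genes were called in HH. Those of RLE normalization and DESeq2 are given above. The cause of these moves was not tested.

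Estimates near 0 changed sign. Rxra in H was 0.00 with no filter and 0.02 with the replicate block, and Ebf1 in HC was 0.03, 0.01 and, without the 5 libraries, 0.00. Without those libraries Cebpa was −0.72 in H and −0.43 in HHC, and in HHC Rxra was −0.15, Nr1h3 −0.04 and Ebf1 −0.01; the median over all genes in H was then 0.35 in place of −0.15. With 1 mouse left out, the range was −0.87 to 0.51 for Cebpb, −0.30 to 0.72 for Rxra, −0.78 to 0.16 for Nr1h3 and −0.60 to 0.19 for Ebf1 in H, the positive ends without C replicate 3, and 0.00 to 1.90 for Cebpa. It was −0.36 to 0.53 for Cebpa, −0.26 to 0.05 for Ebf1 and −0.30 to 0.41 for Zfp423 in HC, and −0.44 to 0.23 for Cebpd and −0.03 to 0.31 for Zfp423 in HH. In HHC it was −1.06 to 0.50 for Pparg, −0.51 to 1.18 for Cebpa, −0.09 to 0.65 for Cebpd, −0.36 to 0.52 for Rxra, −0.13 to 1.20 for Nr1h3, −0.28 to 0.29 for Ebf1 and −0.53 to 0.58 for Zfp423.

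The deviations of same-numbered mice from their group means had correlations of −0.28 to 0.19. Such deviations cancel within a group, and in groups of 2 mice they mirror each other. These correlations therefore cannot show whether the numbers pair the mice. With the replicate block the member calls were 0, 0, 1 and 0, and Klf15 in HH was −1.67 (nominal p 0.00984). Crossed numbers in the long arm gave 1 and 0 member calls. Over all genes, calls at the adjusted threshold were 455, 0, 445 and 0 by edgeR, 2036, 268, 1959 and 458 by DESeq2, 1677, 1077, 2107 and 396 with no filter, and 175, 0, 38 and 0 with the block. With 2 or 3 mice a group, a member that was not called is not shown to be equal between groups.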

Other observations

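Cebpd also differed between chow groups, which the comparisons with HFD do not use. Its level was 36.6 to 67.8 CPM in the 3 CC_s mice at 26 weeks of age and 10.6 to 13.3 in the 3 C mice at 18 weeks, a log2 fold change of 2.22 (SE 0.45, nominal p 0.000116, adjusted p 0.393 by edgeR's quasi-likelihood test), which passed the call rule. It was 2.39 (nominal p 0.00574) without the 5 libraries that stood apart, and 2.01 to 2.43 with 1 C or CC_s mouse left out, past the call rule in each case. Of all tested genes 0.592% were called higher and 1.85% lower between these groups. In the long arm, CCC against CC_l gave −0.17 (SE 0.53) for the same step of 8 weeks. No other member was called between C and CC_s or between CC_l and CCC, where the nearest were Zfp423 at 1.00 (nominal p 0.0319) and Ebf2 at 0.65 (nominal p 0.0779). Age, the change from low-fat to standard chow that the paper describes, and anything else that differed between these groups cannot be told apart. The levels of Cebpd in H (10.9 to 34.6 CPM) and in HC (14.1 to 36.9) overlapped each other, whereas those of their chow controls did not.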
